A study of Mus musculus with 6 samples.

Results

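The BCL2 family is a group of proteins that decides whether the outer mitochondrial membrane is breached during apoptosis. The genes described here are the guardians Bcl2, Bcl2l1, Bcl2l2 and Mcl1, the effectors Bax and Bak1, and the BH3-only genes Bcl2l11, Bbc3, Pmaip1 and Bid. A gene was included where the platform annotation pairs a row of the deposited table with its symbol alone, and the brightest such row, by its mean over the 6 arrays, was read. This gave 9 of the 10 listed genes, out of 22180 genes in all: 4 guardians, 1 effector (Bak1) and 4 BH3-only genes. Bax had no row named by this rule, so its expression was not analysed here.

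The cells were cardiomyocytes cultured from hearts of 1-day-old C57BL/6 mice, enriched by moving the cells that had not attached after a short pre-plating to fibronectin-coated wells. All 6 samples spent 12 h at 2% oxygen, with N2 at 93% and CO2 at 5% making up the rest of the gas. FGF21, an endocrine fibroblast growth factor, was present at 1 μg/ml in 3 of them and absent from the 3 controls. The series asks which genes FGF21 regulates in hypoxic cardiomyocytes, and no comparison with normal oxygen was analysed here. The labels call the samples biological replicates without saying whether they came from separate litters or cultures, so p-values reflect only how far these samples vary, and that variation may be technical.

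As background, the guardians hold back the effectors, and once freed the effectors BAX and BAK form pores in the outer mitochondrial membrane through which cytochrome c escapes. BH3-only proteins are the sensors of stress. They bind the guardians, and some of them also bind the effectors directly. In cardiomyocytes this pathway is best known from ischaemia and reperfusion, and much of its control lies in protein turnover, cleavage and binding, which an RNA measurement does not see.

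No gene of the family passed the test over all genes. The unadjusted 95% interval of the difference lay above 0 for the guardian Bcl2 (1.17-fold) and the effector Bak1 (1.16-fold), below 0 for the BH3-only gene Bid (1.12-fold lower), and included 0 for the other 6. An interval without 0 is the same as an unadjusted limma p under 0.05, which 11.7% of all genes reached. A dimmer row of Bcl2 went the other way, with a log2 difference of -0.07. The sequences just upstream of the starts of Bcl2 and Bak1 are shown because these were the pair of members with the largest differences, in opposite roles. Each is 250 bases ending at the RefSeq start, 5′ to 3′ on the gene's strand, of build GRCm38.p6. The Bcl2 stretch is chr1:106714291-106714540 and the Bak1 stretch chr17:27028628-27028877, both on the minus strand. Capitals mark the GC box GGGCGG, the letters bound by the SP1 family, and TGACG, the short form of the cyclic AMP response element, on either strand.
Bcl2: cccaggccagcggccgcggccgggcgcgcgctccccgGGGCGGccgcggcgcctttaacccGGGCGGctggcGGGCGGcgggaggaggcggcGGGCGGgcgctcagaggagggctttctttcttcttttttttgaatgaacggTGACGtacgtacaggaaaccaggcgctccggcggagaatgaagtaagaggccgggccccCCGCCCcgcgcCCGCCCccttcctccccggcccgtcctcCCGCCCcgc
Bak1: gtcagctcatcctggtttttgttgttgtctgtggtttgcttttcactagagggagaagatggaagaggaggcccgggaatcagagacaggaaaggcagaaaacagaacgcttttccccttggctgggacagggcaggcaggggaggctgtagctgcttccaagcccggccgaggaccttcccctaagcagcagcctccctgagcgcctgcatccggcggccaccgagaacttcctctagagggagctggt

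The windows of Bcl2 and Bak1 were unlike in base composition. Bases G and C made up 74.8% of the Bcl2 stretch and 58.4% of the Bak1 stretch. The Bcl2 stretch held the GC box at 7 places and TGACG at 1 place, whose first base lies 107 bases before the start; the Bak1 stretch held neither. GGGCGG occurred in 32.74% and TGACG in 17.77% of all 32851 RefSeq windows of this length. The table held 14 such windows of the family, from 9 of the 10 listed genes, which include Bax and not Pmaip1, and 10 of the 14, from 7 genes, held the GC box. By G and C content these 10 stood from the 55.17th (Bax) to the 99.25th (Bbc3) percentile of all windows. The share of 32.74% is over windows of every composition, and some windows of Bbc3 overlap. TGACG was found in 2 of the 14, 1 of Bcl2 and 1 of Bbc3. The hypoxia element core ACGTG was found in 2 windows, 1 of Bbc3 and 1 of Bax, against 16.57% of all windows. TGANTCA, a loose pattern for the AP-1 site with any base at N, was found in 0 of the 14, against 6.749%. These are matches of letters in short windows and say nothing about binding.

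Among the guardians, Bcl2, whose protein sits on mitochondrial and ER membranes and sequesters BH3 domains, had log2 values of 8.24, 8.28 and 8.18 with FGF21 and 8.12, 7.97 and 7.95 without. The groups did not overlap, and control replicate 1 lay closest to the FGF21 arrays. The difference, with FGF21 minus without, was 0.22 ± 0.07 on the log2 scale (SE), a 1.17-fold higher level with a 95% interval of 1.05 to 1.30. It did not pass limma over all genes, with an adjusted p of 0.288. A dimmer row that is also annotated to Bcl2 stood at 4.799 with FGF21 and 4.870 without, a log2 difference of -0.07 ± 0.08 (SE), and the mean of both rows gave 0.0762. The unadjusted limma p of Bcl2 was 0.00942, and 0.234 for the mean of its rows.

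Mcl1, a short-lived guardian that heart muscle cannot do without, had almost the same values in all arrays: 9.61, 9.62 and 9.55 with FGF21 and 9.63, 9.59 and 9.59 without. The groups overlapped. Its log2 difference was -0.01, with a 95% interval from -0.15 to 0.12, and its sign turned when each array was centred on its median (0.0229). The residual SD of Mcl1 within groups was 0.0328, lower than in all but 3.92% of genes, which makes it the member with the tightest replicates. Its second row, which gave the same value in 3 of the 6 arrays, differed by 0.02 ± 0.14 (SE).

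Bcl2l1, which encodes BCL-XL, had log2 values of 7.15, 7.16 and 7.03 with FGF21 against 7.03, 7.11 and 7.08 without. FGF21 replicate 3 was as low as the lowest control. The difference was 0.04, with a 95% interval from -0.10 to 0.19. Bcl2l2, which encodes BCL-W, stood at 7.70, 7.77 and 7.81 with FGF21 and at 7.82, 7.82 and 7.92 without. Its groups were separate by a narrow gap, with the control arrays on top. The log2 difference was -0.09 ± 0.06 (SE, 95% interval from -0.24 to 0.05; limma adjusted p of 0.610), and it was -0.145 with quantile normalization applied again, where its unadjusted limma p was 0.0486.

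Bak1, the measured pore-forming effector, had log2 values of 8.33, 8.45 and 8.26 with FGF21 and 8.11, 8.14 and 8.16 without. Every FGF21 array was above every control, and the controls lay within a narrow band while FGF21 replicate 2 was the highest. Means were 8.35 ± 0.0952 (SD, n = 3) and 8.14 ± 0.0270. The log2 difference of Bak1 was 0.21 ± 0.07 (SE), 1.16-fold with a 95% interval of 1.04 to 1.29, and its limma adjusted p over all genes was 0.310. The unadjusted limma p was 0.0124, and it was 0.0540 without FGF21 replicate 2 and 0.0594 with quantile normalization applied again.

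**Figure D1:**
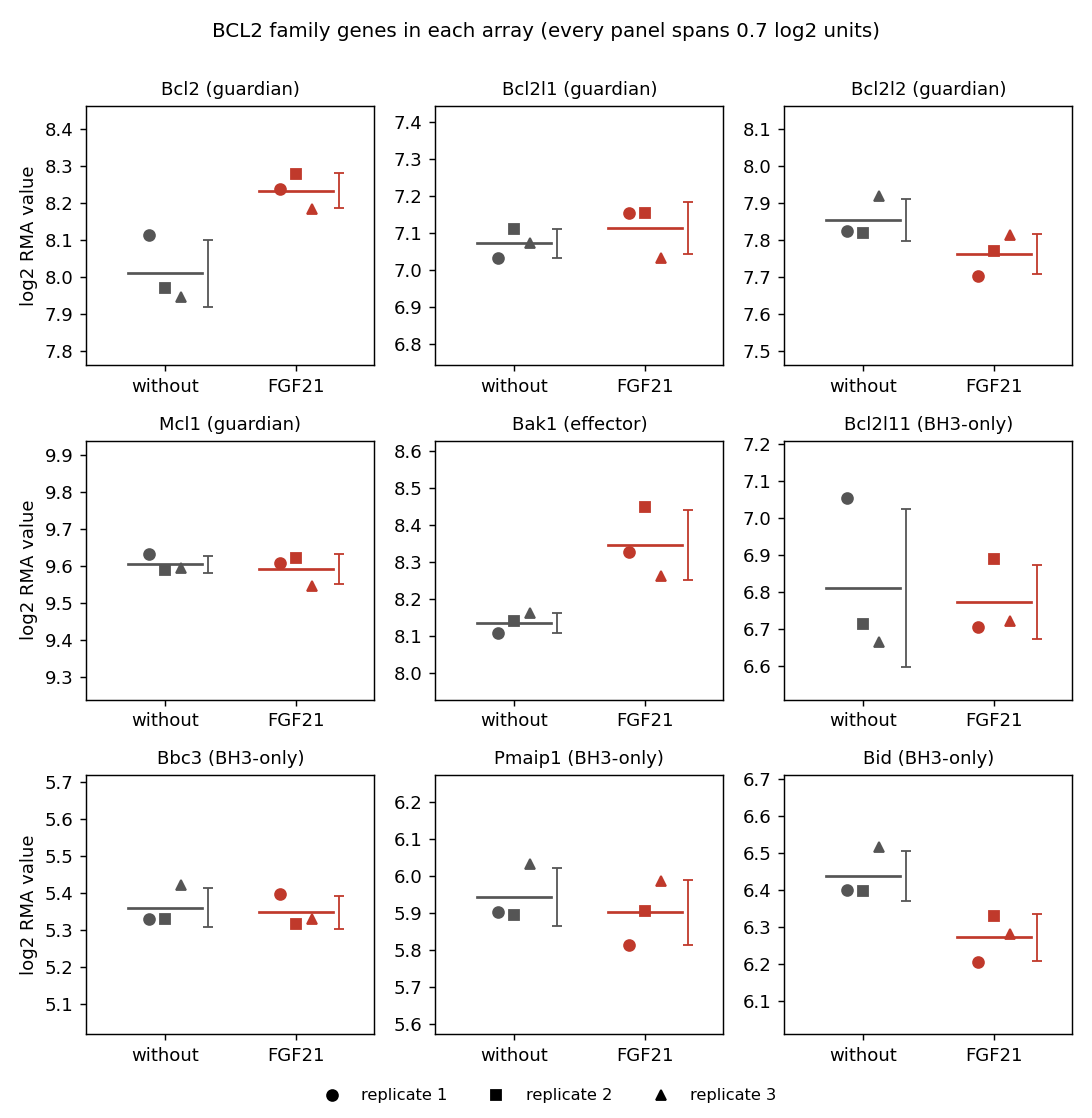
Log2 RMA value (vertical axis) of the 9 measured BCL2 family genes in the control and FGF21 arrays, 1 point per array, with the group mean as a line and its SD (n = 3) as a bar. The groups are separate for Bcl2 and Bak1, higher with FGF21, and for Bid and Bcl2l2, lower with FGF21; they overlap for the other 5 genes.

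The BH3-only gene Bid encodes the protein that caspase-8 cuts to carry the death receptor signal to mitochondria. Its log2 values were 6.21, 6.33 and 6.28 with FGF21 and 6.40, 6.40 and 6.52 without. All 3 FGF21 arrays were below all controls, with control replicate 3 the highest. The difference was -0.17 ± 0.07 (SE), a 1.12-fold lower level with a 95% interval of 1.01 to 1.24, and the limma adjusted p was 0.385. Its unadjusted limma p was 0.0334, and it missed 0.05 when FGF21 replicate 1 (0.103), FGF21 replicate 3 (0.0642) or control replicate 3 (0.111) was left out, and with quantile normalization applied again (0.0508) or each array centred on its median (0.0881).

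Bcl2l11, which encodes BIM, a BH3-only activator that ERK signalling marks for degradation, was the least even member. It stood at 6.71, 6.89 and 6.72 with FGF21 and at 7.06, 6.71 and 6.66 without. Control replicate 1 was the highest of the 6 arrays and the other controls were among the lowest. The log2 difference of -0.04 (95% interval from -0.27 to 0.20) became 0.0844 without control replicate 1. Its residual SD of 0.167 stood at the 90.7th percentile of all genes.

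Bbc3 and Pmaip1 encode PUMA and NOXA, BH3-only proteins best known as products of p53 targets. Bbc3 had log2 values of 5.40, 5.31 and 5.33 with FGF21 and 5.33, 5.33 and 5.42 without. Exactly the same value, 5.33, was deposited for 3 of its arrays, and the groups overlapped. The log2 difference was -0.01 (95% interval from -0.15 to 0.13), and its sign turned when arrays were centred on their median or quantile normalized again. Pmaip1 stood at 5.81, 5.91 and 5.99 with FGF21 and 5.90, 5.89 and 6.03 without, also overlapping, with a difference of -0.04 (95% interval from -0.20 to 0.12). Both rows were dim: by mean level over the arrays, dimmest first, Bbc3 stood at 29.5% and Pmaip1 at 43.5% of all genes, and differences of dim genes are compressed by RMA.

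**Figure D2:**
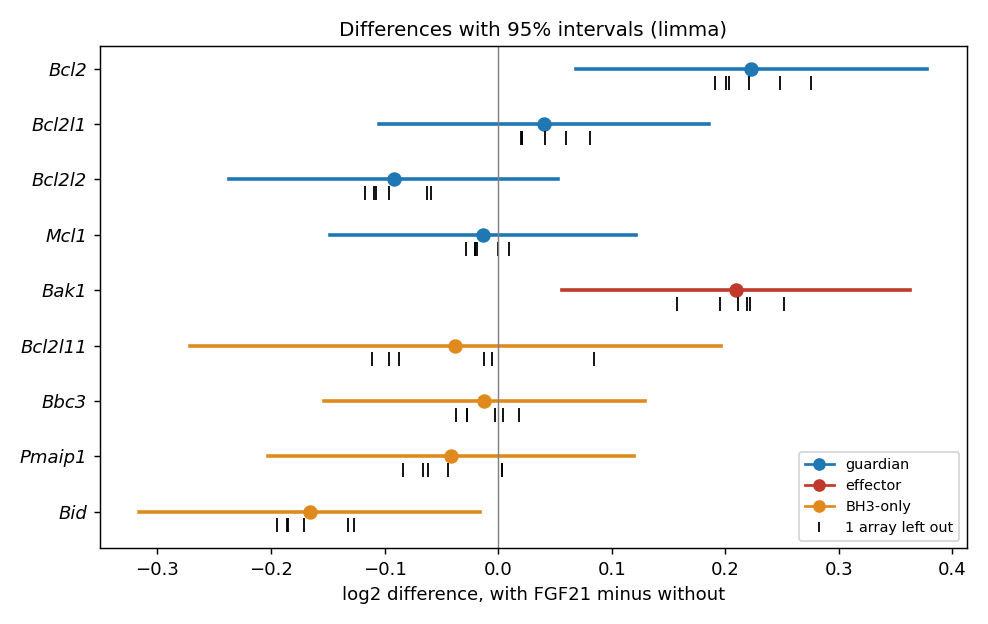
Log2 difference, with FGF21 minus without (horizontal axis), for each of the 9 genes, as a point with its 95% limma interval; colours give the role, and black ticks give the value with 1 array left out. The intervals of Bcl2, Bak1 and Bid lie on 1 side of 0, and the ticks of Mcl1, Bcl2l11, Bbc3 and Pmaip1 fall on both sides.

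Over the family, 0 of 9 genes passed an adjusted p of 0.05 in limma, as did 0 of all 22180 genes (0% called). An unadjusted p under 0.05 was reached by 3 of 9, Bcl2 and Bak1 higher and Bid lower, against 11.7% of all genes (6.59% higher and 5.11% lower). Of all genes past that p, 56.3% were higher with FGF21, and 79.9% when each array was centred on its median. The groups did not overlap for 4 of 9, 2 higher (Bcl2 and Bak1) and 2 lower (Bid and Bcl2l2), against 17.1% of all genes (8.99% higher and 8.14% lower). The median log2 difference of the 9 genes was -0.01, next to -0.0056 for all genes. By sign, 3 were higher and 6 lower (47.8% of all genes were higher), against 5 and 4 with each array centred on its median and 4 and 5 with quantile normalization applied again. With 9 genes these counts are small.

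By role, the 4 BH3-only genes were all lower with FGF21 as deposited, where 47.8% of all genes were higher. Only the 95% interval of Bid left out 0. Bbc3 was higher with each array centred on its median or quantile normalization applied again. Bbc3, Bcl2l11 and Pmaip1 also turned sign with 1 array left out. With FGF21 the mean of the 4 was 6.03, 6.11 and 6.08, and without it 6.17, 6.08 and 6.16, and the groups overlapped. Of the 4 guardians, 2 were higher and 2 lower. Their mean was 8.18, 8.21 and 8.14 with FGF21 against 8.15, 8.12 and 8.13 without, also overlapping. The 95% intervals of the 9 genes reached at most 1.30-fold upwards, for Bcl2, and 1.24-fold downwards, for Bid.

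The genes that act beside, below and above the family were read from 5 lists, chosen with earlier results of these data known. Their shares set beside those of all genes are therefore no independent comparison. Of the 65 listed genes, 55 had a row. Of these 55, 0 passed limma's adjusted p of 0.05 over all genes. An unadjusted p under 0.05 was reached by 8 (14.5%), 6 higher and 2 lower, against 11.7% of all genes. By sign, 33 of the 55 were higher and 22 lower, where 47.8% of all genes were higher. Among 11 other BCL2 relatives and BH3-type genes, 0 had an unadjusted p under 0.05, and differences ran from -0.08 for Bik to 0.12 for Hrk, both BH3-only genes. Among 13 genes of mitochondrial release and caspases, 11 were higher (47.8% of all genes were) with a median of 0.07. Of the 13, 0 had an unadjusted p under 0.05. The groups did not overlap for 4 of them, 3 higher and 1 lower, against 17.1% of all genes. In that list Casp6, an executioner caspase gene, differed by 0.14 ± 0.07 (SE) and Cycs, which encodes cytochrome c, by 0.14 ± 0.07. Both had all FGF21 arrays above all controls. Casp9 went the other way, at -0.11 ± 0.06, with all FGF21 arrays below all controls.

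Of the 7 inhibitor of apoptosis genes, 2 (28.6%) had an unadjusted p under 0.05, against 11.7% of all genes. Birc5, which encodes survivin and also serves cell division, differed by 0.28 ± 0.08 (SE), with values of 6.00, 6.16 and 6.18 against 5.68, 5.95 and 5.86. The row of Birc5 was also below the median level, at 44.8% of all genes by mean level, dimmest first, and its control replicate 1 was the lowest array. Naip5 differed by -0.26 ± 0.08, but it is a dimmer row (30.5%) of a family with close copies and is uncertain. Of 8 death receptor genes, 2 (25%) had an unadjusted p under 0.05, beside the same 11.7% of all genes. They were Tnfrsf10b, which encodes the TRAIL receptor, at 0.23 ± 0.07, and Casp8, the initiator caspase that cuts BID, at 0.22 ± 0.08. Casp8 stood at 9.09, 9.004 and 9.12 with FGF21 and 8.84, 8.98 and 8.73 without, above all controls in each FGF21 array, the opposite direction to Bid. With all genes in the adjustment, limma's adjusted p was 0.272 for Birc5, 0.291 for Naip5, 0.286 for Tnfrsf10b and 0.339 for Casp8.

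Of 16 upstream regulators, 4 (25%) had an unadjusted p under 0.05, against 11.7% of all genes. Jun, a transcription factor gene that can act on Bcl2l11, was at 0.30 ± 0.07 (SE), Bag1, a BCL2-binding co-chaperone gene, at 0.23 ± 0.09, and Mdm2, which encodes the ubiquitin ligase of p53, at 0.19 ± 0.06. Foxo1, a transcription factor that activates BH3-only genes, stood at -0.24 ± 0.07, with values of 7.76, 7.88 and 7.82 against 8.19, 8.01 and 7.98. Groups did not overlap for 5 of the 16, these 4 among them, against 17.1% of all genes. The limma adjusted p-values of the 4 were 0.179, 0.357, 0.312 and 0.294 in that order. Huwe1, Usp9x and Fbxw7, which set the turnover of the MCL1 protein, differed by -0.00, 0.01 and 0.07.

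**Figure D3:**
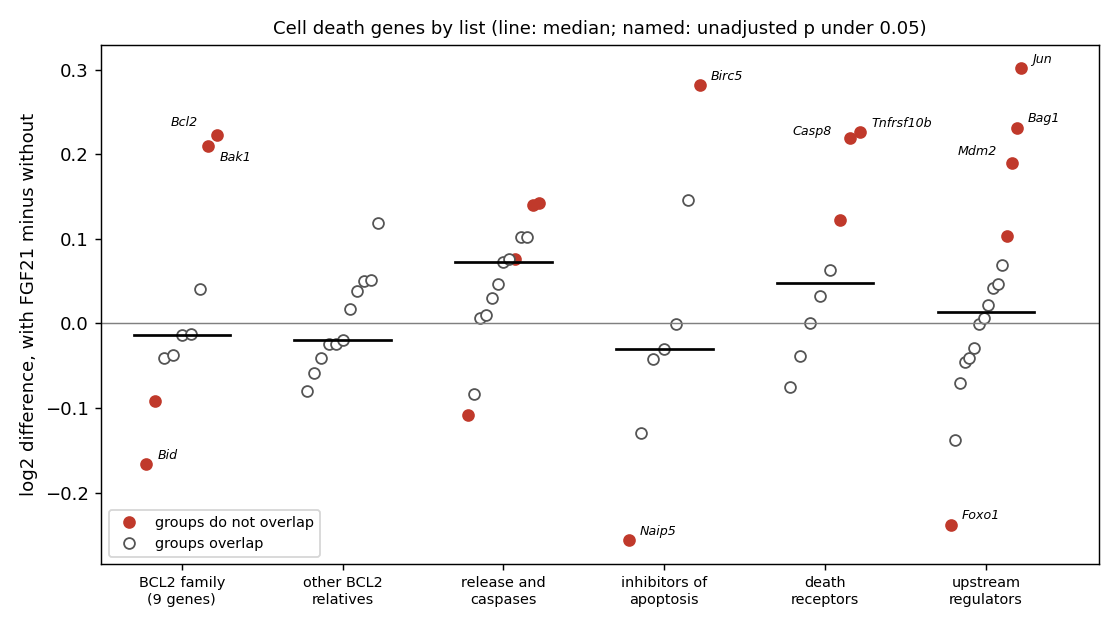
Log2 difference, with FGF21 minus without (vertical axis), for the 9 BCL2 family genes and the 55 measured genes of 5 other cell death lists, 1 point per gene, with each list's median as a line. Filled points are genes whose groups do not overlap, and names mark an unadjusted limma p under 0.05, of which Jun has the largest difference at 0.30.

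Over the 6 arrays, the profile of Bcl2, the member of smallest p, was closest to that of Mdm2 among the 55 genes. The measure was the Euclidean distance between log2 values after each gene's mean was subtracted, and it was 0.119 for Mdm2, 0.210 for Jun and 0.216 for Aifm1. Mdm2 stood at 8.68, 8.64 and 8.69 with FGF21 and 8.55, 8.45 and 8.44 without. In both genes control replicate 1 was the highest control. Because Bcl2 was picked by its p for the group difference, nearness to it partly restates a similar difference. No reference distance over all genes was taken.

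The labelled cell type was checked on marker lists. Cardiomyocyte markers such as Tnnt2, Actc1 and Nppa were bright, and the mean of their 10 genes ran from 11.4 to 11.5 with FGF21 and from 11.4 to 11.6 without. Fibroblast markers were also present, with means of 9 genes from 10.4 to 10.5 in each group. Of the 9 endothelial markers, 8 were lower with FGF21, and 7 of the 9 had an unadjusted limma p under 0.05, against 11.7% of all genes. None passed limma over all genes, where the smallest adjusted p of the list was 0.191. The mean of the 9 ran from 7.07 to 7.32 with FGF21 and from 7.42 to 7.64 without. Endothelial cells express BCL2 family genes too, and the part of these lower values in those of Bcl2, Bak1 and Bid was not tested. In bulk RNA, fewer cells of a type and less RNA per cell cannot be told apart. Smooth muscle and pericyte markers ran from 8.97 to 9.08 with FGF21 and from 9.02 to 9.17 without, and leukocyte markers from 7.62 to 7.72 and from 7.58 to 7.65.

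**Figure D4:**
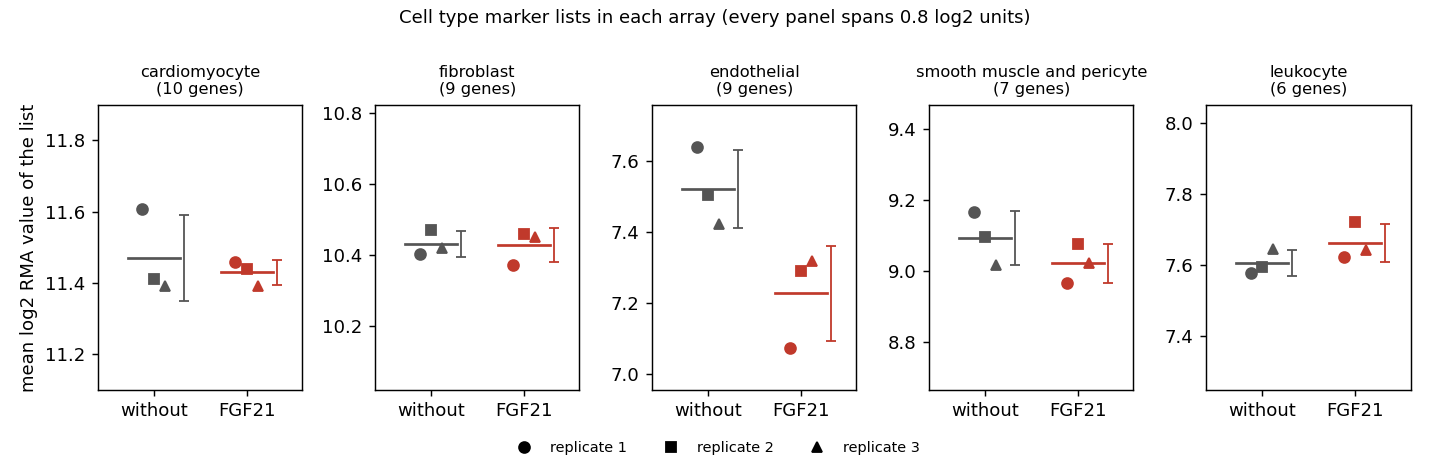
Mean log2 RMA value (vertical axis) of 5 cell type marker lists in the control and FGF21 arrays, 1 point per array, with group mean and SD (n = 3). The endothelial list is separate between the groups, from 7.07 to 7.32 with FGF21 and from 7.42 to 7.64 without, and the cardiomyocyte list overlaps, with control replicate 1 the highest.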

How the data were processed

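RNA of 6 samples was measured on 1 Affymetrix Mouse Gene 2.0 ST array each. The authors deposited log2 values made by the robust multi-array average (RMA) with the affy package in R 3.2.2, as the submitters' processing notes list. RMA equalises the distributions of arrays, which can hide a common shift, and compresses dim differences. For the chip definition and genome build, the entry is: not given in the sources used here. The table had 41345 rows, of which 23521 had 1 symbol in the platform annotation, 1814 several and 16010 none listed. Array medians over all rows were 5.79, 5.76 and 5.79 with FGF21 and 5.81, 5.82 and 5.83 without. Every FGF21 median thus lay below every control median. The number of arrays limits the precision.

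Group and replicate came from the titles. One row per gene was fitted with limma 3.58.1 in R 4.3.3 (lmFit, eBayes, two-sided, no covariate), with Benjamini-Hochberg adjustment over 22180 genes and a threshold of 0.05. In simulated data for this comparison, with 22180 genes, 61% of genes changed by 0.5 and 97% of those changed by 1 (log2) were recovered. Among unchanged genes, 8 were called. Smaller changes were not simulated, so recovery at the size of the largest member difference, 0.22 for Bcl2, is not known. The members and lists were chosen with earlier results of these data known. The genes named are all members and, per list, the 2 of smallest p and any other with an unadjusted p under 0.05; Aifm1 is named by a further rule for the 3 genes most alike to the member of smallest p. Huwe1, Usp9x, Fbxw7, Becn1, Diablo, Casp9 and single marker genes were added after their values were seen. A planned Bax minus Bcl2 comparison was not made, since Bax had no row. Upstream sequences are from RefSeq's GRCm38.p6 table, which matched 9 members; TGACG and GGGCGG were chosen after the Bcl2 sequence was read. Alternatives were a replicate block, each array left out, the mean of rows, all rows, a filter on dim genes, quantile normalization again, median centring, a trend and robust prior and array weights.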

Additional observations from a re-analysis of the deposited data

How the results depend on the processing

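No member passed limma's adjusted p of 0.05 in any of the 14 alternatives (0 in each). The members with an unadjusted p under 0.05 numbered 2 to 3 in all of them, though not always the same ones: with quantile normalization applied again they were Bcl2 (p of 0.0494) and Bcl2l2 (0.0486), while Bak1 (0.0594) and Bid (0.0508) missed it. Those with separate groups numbered 3 to 5. A replicate block, all rows fitted, the trend and robust prior and array weights cannot change this count. Groups also separate more easily with 1 array left out. Bcl2, Bak1, Bid, Bcl2l1 and Bcl2l2 kept their sign in each of the 14, but many of these could not turn it. A replicate block, all rows fitted, the filter on dim genes and the trend and robust prior leave a difference as it is. Where groups do not overlap, as for Bcl2, Bak1, Bid and Bcl2l2, leaving out an array or weighting arrays cannot turn it. With 1 array left out, the difference ran from 0.191 to 0.275 for Bcl2, from 0.158 to 0.251 for Bak1 and from -0.195 to -0.127 for Bid. Bcl2 was at 0.159 and Bak1 at 0.142 with quantile normalization applied again. Signs turned for Mcl1 with the mean of its rows (0.00426), with each array centred on its median (0.0229) and with 1 array left out (-0.0285 to 0.0096), for Bbc3 with quantile normalization again (0.0315), median centring (0.0239) and 1 array left out (-0.0375 to 0.0185), for Bcl2l11 with 1 array left out (-0.111 to 0.0844), and for Pmaip1 likewise (-0.0838 to 0.00364). Bcl2l1 ran from 0.0172 to 0.0813. The count of 0 among all genes became 2 with the mean of rows, 58 with dim genes left out, 5 with quantile normalization again, 12 with median centring, 16 with the prior given a trend and made robust, 2 with array weights, and 0 to 2 with 1 array left out (2 without FGF21 replicate 1). Bbc3 and Pmaip1 are below the median level, so the filter on dim genes gave no value for them. Arrays of the same number had deviations from their group means that correlated at 0.103, 0.158 and 0.00653, so the numbers are not shown to pair the arrays; with a replicate block the counts stayed at 0 of 9 members past the adjusted p and 3 past the unadjusted one, and 0 of all genes.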

Other observations

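Several cell death rows carried exactly repeated values across arrays. Bbc3 and the second row of Mcl1 had the same deposited value in 3 of 6 arrays each, as did Bik, and Hrk, Becn1 and Diablo in 2 arrays. Over all 22180 genes, 10.9% had a value repeated in at least 2 arrays and 2.23% in at least 3.

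Markers of other cells went both ways. Of 7 smooth muscle and pericyte markers, 3 were higher and 4 lower with FGF21. Log2 differences in that list ran from -0.49 for Rgs5 to 0.16 for Myh11. Of 6 leukocyte markers, 4 were higher and 2 lower, from -0.20 for Cd68 to 0.20 for Ptprc. No gene of either list passed limma's adjusted p of 0.05 over all genes; the smallest adjusted p was 0.281 for smooth muscle and pericyte markers and 0.283 for leukocyte markers.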
